A study of Rattus norvegicus with 9 samples.

Results

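The genes described here are the 5 enzymes of the urea cycle, the enzyme that makes its activator and the 2 mitochondrial carriers that serve it, in rat livers that regrow after the toxin retrorsine and the removal of liver tissue. They were chosen by name (Nags, Cps1, Otc, Ass1, Asl, Arg1, Slc25a15 and Slc25a13), and all 8 were found, each with 1 probe set, among 18166 genes named on the arrays. All 8 passed the filter on dim genes, as did 15793 genes in all. The 9 whole-transcript Affymetrix arrays fell into 3 groups of 3, all from female F344 rats. All rats, those behind the hepatocyte arrays included, were injected with retrorsine (30 mg/kg) 2 times with 2 weeks between, and partial hepatectomy followed 4 weeks later. Retrorsine blocks the division of most hepatocytes, and new tissue then arises from small hepatocyte-like progenitor cells, SHPCs, which grow as clusters. The groups were SHPC clusters of livers that had received sorted Thy1+ cells, from donors with the enzyme dipeptidyl peptidase IV, into recipients lacking it and by way of the spleen; SHPC clusters of livers not given them; and hepatocytes next to the clusters, again of livers not given them. They are called transplanted SHPCs, SHPCs and hepatocytes below. The hepatocyte arrays were grouped by their cell type label and titles, since their description field names SHPCs with transplantation. Tissue was cut by laser, under the microscope, from frozen sections of 7 µm stained with hematoxylin.

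The urea cycle turns ammonia into urea, in the hepatocytes around the portal veins above all. Nags makes N-acetylglutamate, without which Cps1 is inactive; Cps1 joins ammonia and bicarbonate to carbamoyl phosphate in the mitochondrion, and Otc adds that to ornithine to give citrulline. Slc25a15 carries ornithine in and citrulline out across the inner mitochondrial membrane. Slc25a13, or citrin, exports aspartate, which Ass1 joins to citrulline in the cytosol; Asl splits the product to arginine and fumarate, and Arg1 splits arginine to urea and ornithine, which returns to the mitochondrion. In liver these genes are switched on around birth and are raised by glucagon and glucocorticoids, and HNF4 alpha and C/EBP factors are known to act on several of them.

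Promoter sequences were found for 7 of the 8 members in RefSeq's table for build GRCr8, as windows of 300 bases from 250 before to 50 after an annotated start. The windows of Cps1, Otc and Slc25a15 are shown, since Cps1 and Otc are the enzymes on either side of the carbamoyl phosphate step and Slc25a15, their carrier, had the smallest p-value of the members in both comparisons of transplanted SHPCs. Capitals mark the matches to the motifs searched, which lie 5′ to 3′ on the gene's own strand.
Cps1, chr9:76063613-76063912, plus strand: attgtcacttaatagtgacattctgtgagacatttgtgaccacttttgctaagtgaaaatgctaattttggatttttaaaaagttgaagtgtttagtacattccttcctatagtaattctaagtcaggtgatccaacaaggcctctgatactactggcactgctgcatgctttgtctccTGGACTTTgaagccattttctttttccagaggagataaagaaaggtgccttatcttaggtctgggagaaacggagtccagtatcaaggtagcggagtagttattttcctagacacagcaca
Otc, chrX:15202424-15202723, minus strand: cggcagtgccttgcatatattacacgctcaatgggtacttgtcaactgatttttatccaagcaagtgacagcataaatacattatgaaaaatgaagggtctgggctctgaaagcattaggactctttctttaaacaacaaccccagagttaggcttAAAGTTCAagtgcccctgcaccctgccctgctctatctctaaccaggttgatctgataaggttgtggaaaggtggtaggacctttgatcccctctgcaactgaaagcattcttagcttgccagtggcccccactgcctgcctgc
Slc25a15, chr16:76336620-76336919, plus strand: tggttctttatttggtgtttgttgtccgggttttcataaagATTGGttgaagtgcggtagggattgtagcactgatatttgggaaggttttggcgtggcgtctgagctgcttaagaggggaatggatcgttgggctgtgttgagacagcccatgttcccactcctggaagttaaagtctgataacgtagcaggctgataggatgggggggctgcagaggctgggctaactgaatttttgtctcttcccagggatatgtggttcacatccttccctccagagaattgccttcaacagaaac

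There were 7 motifs, each searched on both strands. The TATA box was searched as TATAAA. The NF-Y box was searched as CCAAT. The GC box was searched as GGGCGG. The C/EBP motif was searched as TTGCNNAA. The HNF4-like core was searched as AAAGNNCA. The core of the cAMP response element was searched as TGACG. The core of the glucocorticoid response element was searched as AGAACA. The HNF4-like core was matched in the windows of Cps1, at -71 to -64 on the reverse strand, and of Otc, at -94 to -87 on the forward strand, and in 20.2% of all 33469 windows. Slc25a15 held the NF-Y letters on the reverse strand at -209 to -205, and 37.5% of all windows held them. The Slc25a15 window lies at a start 2833 bases inside the annotated gene. The C/EBP motif and the glucocorticoid core had no match in the 7 windows, against 10.6% and 20.7% of all windows, and none of the matches shown overlapped another. These matches are letters in a window and not measured sites.

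Before the results, 2 arrays need naming: SHPC array 2 and hepatocyte array 2 had median intensities of 24.1 and 23.0 on the linear scale against 19.6 to 20.6. Among the 1271 tested genes at least as bright on average as the dimmest member, the median deviation from the group mean was −0.45 on SHPC array 2 and −0.29 on hepatocyte array 2 (log2), against 0.12 to 0.22 on the other arrays of those groups. The members followed, with 7 of 8 lowest of their group on SHPC array 2 and 7 of 8 on hepatocyte array 2. Changes of the members, and counts and medians of gene lists, are therefore also given without both arrays. Hepatocyte markers such as Alb and Ttr were bright everywhere, and the summed intensity of 10 of them was 50938 to 53343 in transplanted SHPCs, 43858 to 51434 in SHPCs and 48611 to 52809 in hepatocytes. The sources used here tie no array to an animal, so the p-values below measure the spread between arrays. They are too small if arrays of one group share an animal. Sharing between groups was not modelled, except in the fits with a replicate block.

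**Figure D1:**
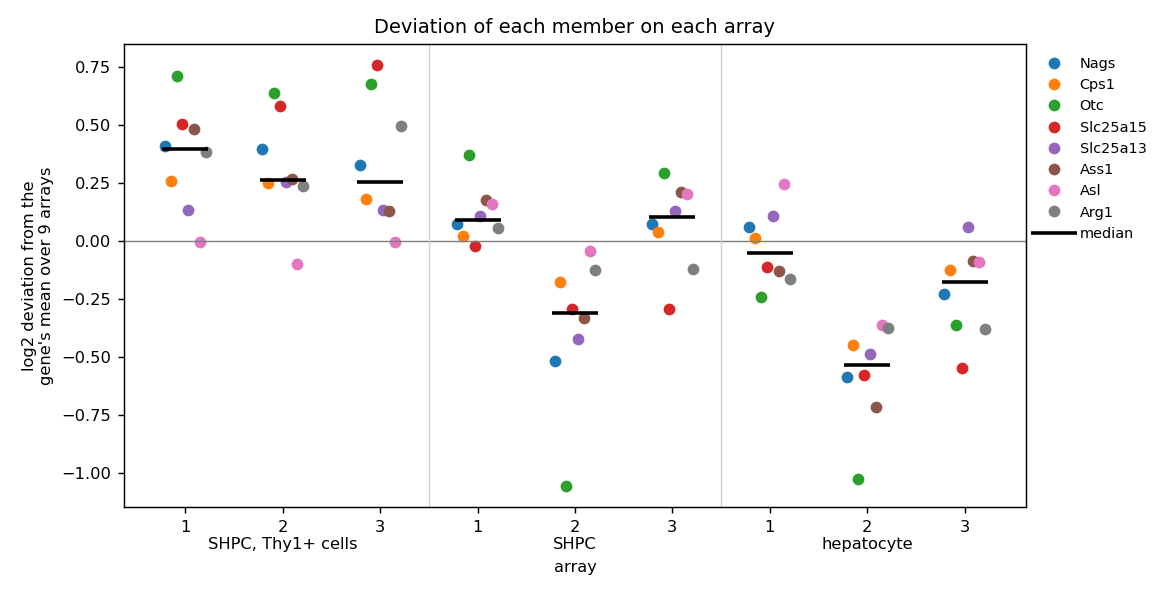
Deviation of each member's log2 intensity from its own mean over the 9 arrays (y axis), for each array (x axis, grouped); coloured points are the 8 genes and black bars their median. The bars lie at 0.25 to 0.40 on the 3 transplanted SHPC arrays and at −0.31 and −0.53 on SHPC array 2 and hepatocyte array 2.

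Transplanted SHPCs against hepatocytes was the comparison in which members passed the test. The hepatocytes came from livers without transplantation, so in it transplantation and the difference between clusters and neighbouring tissue cannot be told apart. Slc25a15, the ornithine carrier gene, was 2.04-fold higher and Arg1 1.60-fold higher in transplanted SHPCs, and both passed at a limma adjusted p under 0.05 over all tested genes. All 8 members lay above hepatocytes, by a median of 0.62 on the log2 scale or 1.53-fold, where the median over all tested genes was −0.0013. The members called were 2 of 8, where 1.18% of all tested genes were called (0.861% higher, 0.317% lower). On 7 of the 8 genes every transplanted SHPC array lay above every hepatocyte array, a pattern that 12.6% of tested genes showed, with 6.64% the opposite way and 19.2% in all; Asl was the exception. An unadjusted p under 0.05 was reached by 6 members, all higher, against 10.4% of all genes (7.07% higher). Without SHPC array 2 and hepatocyte array 2 the members' median was 0.43 and 3 passed, Otc, Arg1 and Slc25a15, against 3.67% of all genes. Without transplanted array 1, 2 or 3 or hepatocyte array 2 or 3, 0 passed, and without SHPC array 1 or 3 or hepatocyte array 1, 1 passed.

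Transplanted SHPCs against SHPCs asks what the given cells changed in the clusters. Slc25a15 was 1.76-fold higher and Otc 1.75-fold higher in transplanted SHPCs, but 0 of the 8 members passed in limma over all genes, where 0.00633% of genes were called, 0% higher and 0.00633% lower. Of the members 7 lay above SHPCs and Asl below, with a median of 0.36 (1.28-fold) against 0.017 over all tested genes. An unadjusted p under 0.05 was reached by 4 members, Slc25a15, Arg1, Nags and Otc, against 7.35% of all genes (5.07% higher). On 6 of the 8 the arrays of the groups did not overlap, transplanted SHPCs being higher, as for 10.6% of tested genes, with 5.23% the opposite way and 15.8% in all. Without SHPC array 2 and hepatocyte array 2 the median was 0.25, and cyclic loess gave 0.10.

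SHPCs against hepatocytes, in livers without transplantation, asks how the clusters differ from the tissue beside them. The members lay 0.05 to 0.41 above hepatocytes on the log2 scale, with a median of 0.19 or 1.14-fold, against −0.0062 over all tested genes. That median rests on single arrays: it was 0.078 without hepatocyte array 2, 0.32 without hepatocyte array 1 and 0.16 without both arrays that stood apart. Of the 8 members 0 passed in limma, where 0.0633% of genes were called (0.0317% higher, 0.0317% lower), and 0 had an unadjusted p under 0.05, where 4.12% of genes did (2.31% higher). Arg1 was the 1 member whose arrays did not overlap, as for 2.72% of tested genes in that direction, 2.49% in the other and 5.22% in all. Whether arrays of these groups with the same replicate number belong together is not given. With the number as a fixed block, 0 members passed and the count over all genes was 35 in place of 10. Both arrays that stood apart carry the same number, so the block also takes up their shift, and the higher count does not show pairing. The 3 comparisons share arrays, so their values for a gene are not independent of each other.

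**Figure D2:**
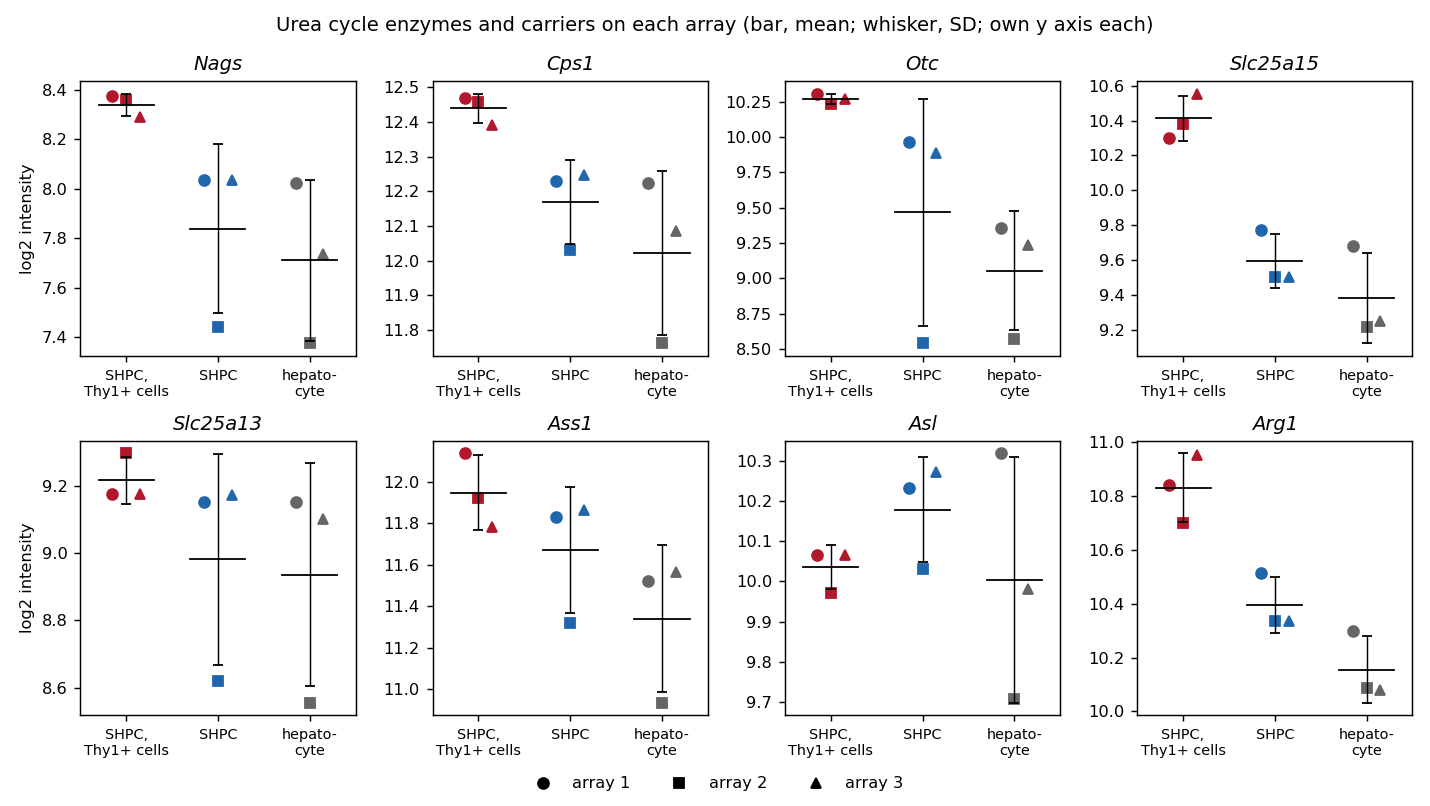
Log2 intensity (y axis, separate for each gene) of the 8 members on each array of transplanted SHPCs, SHPCs and hepatocytes; symbols mark the array number, bars the mean and whiskers the SD (n = 3 arrays). For Slc25a15 the transplanted arrays sit at 10.30 to 10.55, above all others, while for Asl they lie among them.

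**Figure D3:**
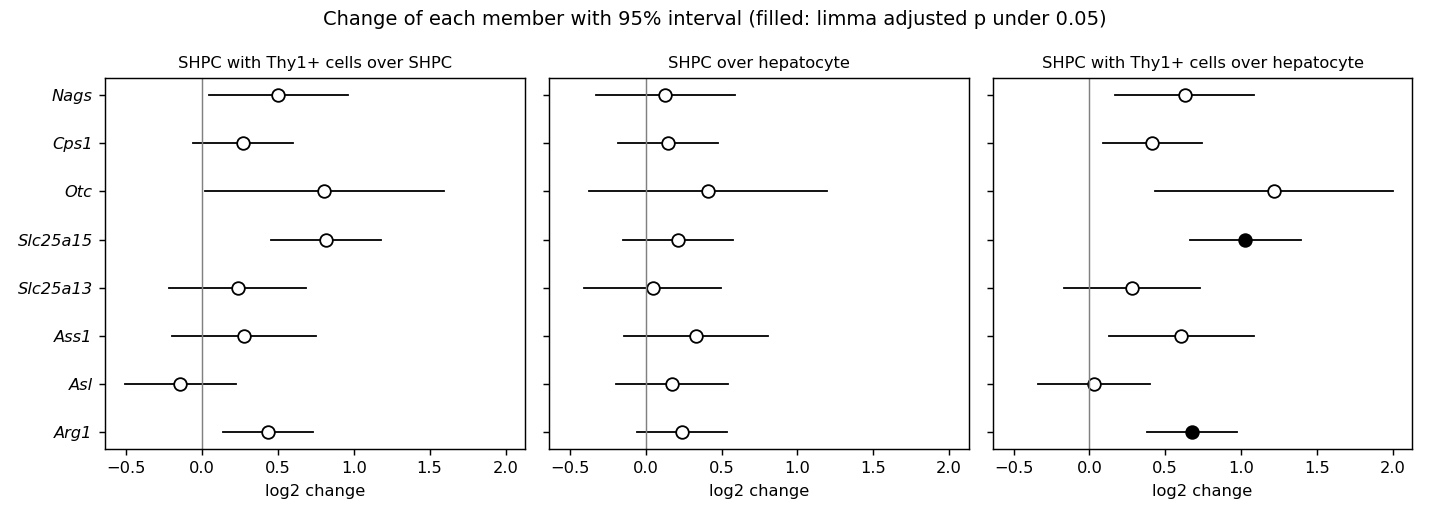
Log2 change (x axis) of the 8 members (y axis) in the 3 comparisons, with limma's 95% interval; filled points passed at an adjusted p under 0.05 over 15793 genes. The filled points are Slc25a15 at 1.03 and Arg1 at 0.68, both in transplanted SHPCs over hepatocytes.

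Nags and Cps1 open the cycle. Nags (probe set 17651474), the gene for the enzyme that makes the activator of Cps1, was at 8.37, 8.36 and 8.29 in transplanted SHPCs, 8.04, 7.44 and 8.04 in SHPCs, and 8.02, 7.38 and 7.73 in hepatocytes (log2 intensity, arrays 1, 2 and 3). The transplanted arrays lay above all 6 others, which overlapped. Nags differed by 0.50 ± 0.21 from SHPCs (SE, limma adjusted p = 0.654) and by 0.63 ± 0.21 from hepatocytes (limma adjusted p = 0.273), or 0.30 and 0.46 without both arrays that stood apart, the first of them set by SHPC array 2 alone. SHPCs and hepatocytes differed by 0.13 ± 0.21 (limma adjusted p = 1), by −0.04 without hepatocyte array 2 and by 0.029 to 0.32 without hepatocyte array 1 or any 1 SHPC array. SHPC arrays 1 and 3 held the same value for Nags, as they did for 6.55% of tested genes, which narrows the spread behind these p-values.

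Cps1 (probe set 17860138), the most abundant mitochondrial matrix protein of the liver cell, was at 12.47, 12.46 and 12.39 in transplanted SHPCs, 12.23, 12.03 and 12.25 in SHPCs, and 12.22, 11.76 and 12.09 in hepatocytes. Again the transplanted arrays were the 3 highest, and SHPC and hepatocyte arrays overlapped. The difference was 0.27 ± 0.15 from SHPCs (SE, limma adjusted p = 0.705), with a 95% interval of −0.06 to 0.60, and 0.42 ± 0.15 from hepatocytes (limma adjusted p = 0.33). Without SHPC array 2 and hepatocyte array 2 these values were 0.20 and 0.29. SHPCs differed from hepatocytes by 0.15 ± 0.15 (limma adjusted p = 1), by 0.015 without hepatocyte array 2, 0.25 without hepatocyte array 1 and 0.085 without both arrays.

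Otc and Slc25a15 act at citrulline formation and its transport. Otc (probe set 17876063), the X-linked gene of ornithine transcarbamylase, was at 10.31, 10.24 and 10.27 in transplanted SHPCs, 9.97, 8.54 and 9.89 in SHPCs, and 9.35, 8.57 and 9.24 in hepatocytes. The transplanted arrays lay close together and above the rest, whereas SHPC array 2 was far below the other SHPC arrays and level with hepatocyte array 2. Its difference from hepatocytes, 1.22 ± 0.35 (SE, 2.33-fold), was the largest among the members but missed the threshold (limma adjusted p = 0.193). Without SHPC array 2 and hepatocyte array 2 it passed, at 0.98 (limma adjusted p = 0.00273), as it did without SHPC array 2 alone (0.0109) and after renewed quantile normalization (0.0428) or cyclic loess (0.0143); it passed in 7 of 21 alternatives. From SHPCs it differed by 0.81 ± 0.35 (limma adjusted p = 0.67), which came to 0.34 without SHPC array 2. SHPCs lay 0.41 ± 0.35 above hepatocytes (limma adjusted p = 1), and 0.64 without both arrays that stood apart (0.0656). With 1 array left out this last difference was 0.16 (SHPC array 1), 0.88 (SHPC array 2), 0.20 (SHPC array 3) or 0.17 (hepatocyte array 2).

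Slc25a15 (probe set 17708927), the ornithine carrier, was at 10.30, 10.38 and 10.55 in transplanted SHPCs, 9.77, 9.50 and 9.50 in SHPCs, and 9.68, 9.22 and 9.25 in hepatocytes. The lowest transplanted array lay above the highest of the others, and the SHPC and hepatocyte arrays overlapped. Slc25a15 rose by 1.03 ± 0.16 over hepatocytes (SE, limma adjusted p = 0.0206), with a 95% interval of 0.66 to 1.39. The same difference was 0.95 without SHPC array 2 and hepatocyte array 2 (limma adjusted p = 0.0204). The call ended without transplanted array 1, 2 or 3 (adjusted p = 0.0951, 0.0992 and 0.118) and without hepatocyte array 2 or 3 (0.0739 and 0.0909), with changes of 0.95 to 1.08. It also ended after median centring (0.0643), at 1.12. Over SHPCs Slc25a15 differed by 0.82 ± 0.16 (limma adjusted p = 0.183), with a 95% interval of 0.45 to 1.18, and this reached the threshold under array weights only (0.0106); without both arrays that stood apart it was 0.77. SHPCs and hepatocytes differed by 0.21 ± 0.16 (limma adjusted p = 1), or 0.17 without both arrays, 0.12 without SHPC array 1, 0.13 without hepatocyte array 2 and 0.36 without hepatocyte array 1.

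Among the 41 tested mitochondrial carrier genes named Slc25a, Slc25a15 had the second smallest p in both comparisons of transplanted SHPCs. The only others to pass against hepatocytes were Slc25a23, a calcium-dependent carrier of ATP-Mg and phosphate, at 1.40, and Slc25a30 at −1.11. That made 3 of the 41, against 1.18% of all genes. Without both arrays that stood apart 6 of the 41 passed, these 3 among them, against 3.67% of all genes.

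Slc25a13, Ass1 and Asl supply aspartate and make arginine. Slc25a13 (probe set 17789588), the aspartate-glutamate carrier of the liver, was at 9.18, 9.30 and 9.18 in transplanted SHPCs, 9.15, 8.62 and 9.17 in SHPCs, and 9.15, 8.55 and 9.10 in hepatocytes. Apart from the low array 2 of the last groups, the arrays of all groups lay close together. The difference was 0.23 ± 0.20 from SHPCs (SE, limma adjusted p = 0.743) and 0.28 ± 0.20 from hepatocytes (limma adjusted p = 0.681). Without SHPC array 2 and hepatocyte array 2 these were 0.054 and 0.090, and cyclic loess turned the first to −0.0071. Between SHPCs and hepatocytes the difference of 0.05 ± 0.20 (limma adjusted p = 1) changed sign without SHPC array 1 or 3 or hepatocyte array 2, was 0.13 to 0.23 without SHPC array 2 or hepatocyte array 1 or 3, and was 0.036 without both arrays.

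Ass1 (probe set 17761221), which joins citrulline and aspartate, was at 12.14, 11.92 and 11.78 in transplanted SHPCs, 11.83, 11.32 and 11.86 in SHPCs, and 11.52, 10.93 and 11.57 in hepatocytes. Transplanted SHPCs lay above all hepatocyte arrays but overlapped SHPCs. Ass1 differed by 0.61 ± 0.21 from hepatocytes (SE, limma adjusted p = 0.327) and by 0.27 ± 0.21 from SHPCs (limma adjusted p = 0.73), or 0.40 and 0.10 without SHPC array 2 and hepatocyte array 2. The second of these was also lower, at 0.18, without transplanted array 1. SHPCs were 0.33 ± 0.21 above hepatocytes (limma adjusted p = 1), or 0.13 without hepatocyte array 2, 0.51 without SHPC array 2 and 0.30 without both.

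Asl (probe set 17673302), the argininosuccinate lyase gene, was at 10.07, 9.97 and 10.07 in transplanted SHPCs, 10.23, 10.03 and 10.27 in SHPCs, and 10.32, 9.71 and 9.98 in hepatocytes. It was the member with overlapping arrays in all 3 comparisons, and transplanted arrays 1 and 3 held the same value. Its difference from SHPCs was −0.14 ± 0.17 (SE, limma adjusted p = 0.794) and from hepatocytes 0.03 ± 0.17 (limma adjusted p = 0.962), with a 95% interval of −0.34 to 0.40. SHPCs lay 0.18 ± 0.17 above hepatocytes (limma adjusted p = 1), or 0.33 without hepatocyte array 1, 0.028 without hepatocyte array 2 and 0.10 without both arrays that stood apart. The difference of transplanted SHPCs from SHPCs was −0.22 without SHPC array 2. The difference of transplanted SHPCs from hepatocytes was −0.12 without hepatocyte array 2, 0.19 without hepatocyte array 1, 0.016 to 0.063 without any 1 transplanted array, −0.06 after renewed quantile normalization and −0.17 after cyclic loess.

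Arg1 (probe set 17610985), whose enzyme releases urea, was at 10.84, 10.70 and 10.95 in transplanted SHPCs, 10.51, 10.33 and 10.34 in SHPCs, and 10.30, 10.09 and 10.08 in hepatocytes. The 3 groups did not overlap, in the order transplanted SHPCs, SHPCs, hepatocytes, and only the outer groups differed by the test. Arg1 rose by 0.68 ± 0.13 in transplanted SHPCs over hepatocytes (SE, limma adjusted p = 0.0444), and by 0.64 without SHPC array 2 and hepatocyte array 2 (0.0323). Its call ended without any single array except SHPC array 2, at adjusted p-values of 0.0576 to 0.222 and changes of 0.62 to 0.75. It ended as well after median centring (0.115), renewed quantile normalization (0.0706) and cyclic loess (0.28), where the change was 0.48, and with a trended, robust variance prior (0.0936). Over SHPCs Arg1 differed by 0.44 ± 0.13 (limma adjusted p = 0.461), and SHPCs lay 0.24 ± 0.13 above hepatocytes (limma adjusted p = 1); without both arrays that stood apart these were 0.41 and 0.24.

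In order of mean level, transplanted SHPCs came first, SHPCs next and hepatocytes last for 7 members, and for Asl the order was SHPCs, transplanted SHPCs, hepatocytes. No pair of neighbours in these orders passed the test. Differences between members within an array cancel a shift that the genes share. Slc25a15 minus Asl was 0.38 ± 0.13 in transplanted SHPCs, −0.58 ± 0.16 in SHPCs and −0.62 ± 0.12 in hepatocytes (log2, mean ± SD, n = 3 arrays each). The transplanted value lay 0.96 above SHPCs and 1.00 above hepatocytes, or 0.99 and 1.06 without both arrays that stood apart. Slc25a15 minus Slc25a13, the other carrier, was 1.20 ± 0.16 in transplanted SHPCs, 0.61 ± 0.28 in SHPCs and 0.45 ± 0.27 in hepatocytes. The transplanted value lay 0.58 above SHPCs and 0.75 above hepatocytes, or 0.72 and 0.86 without both arrays. These pairs were chosen after the members' values were seen, so the values are a description.

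Pearson correlation of log2 values gave, for each member, the 3 tested genes with the most similar pattern over the 9 arrays. Numbered loci were left out. The nearest genes included another member only for Slc25a15 and Arg1, which were among each other's nearest 3 (r = 0.97). Arg1 was also close to Got1 (r = 0.97), the cytosolic aspartate aminotransferase, and to Fign (r = 0.97), and Slc25a15 to Ptprk and Gbp5 (r = 0.97 for each). Nearest to Cps1 were Thtpa, Kiaa1671 and Pomt1 (r = 0.98 to 0.99), and to Otc Anpep, Stt3a and Plaat3 (r = 0.99). Ass1 was nearest to Or7a35, Add3 and Gls2 (r = 0.98 to 0.99) and Asl to Trim28, Rrs1 and Fhip2a (r = 0.94). Nags was nearest to Tmem63a, Sec13 and Tcp11l2 (r = 0.99), and Slc25a13 to Ice2, Pcyox1 and Cpox (r = 0.99 to 1.00). Over the 7 arrays left without the 2 that stood apart, r was 0.90, 0.86 and 0.81 for the genes near Slc25a13 and 0.88 to 0.93 for those near Asl, and 0.95 to 1.00 for those near the other 6 members. The arrays share their groups, so these values describe these arrays.

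**Figure D4:**
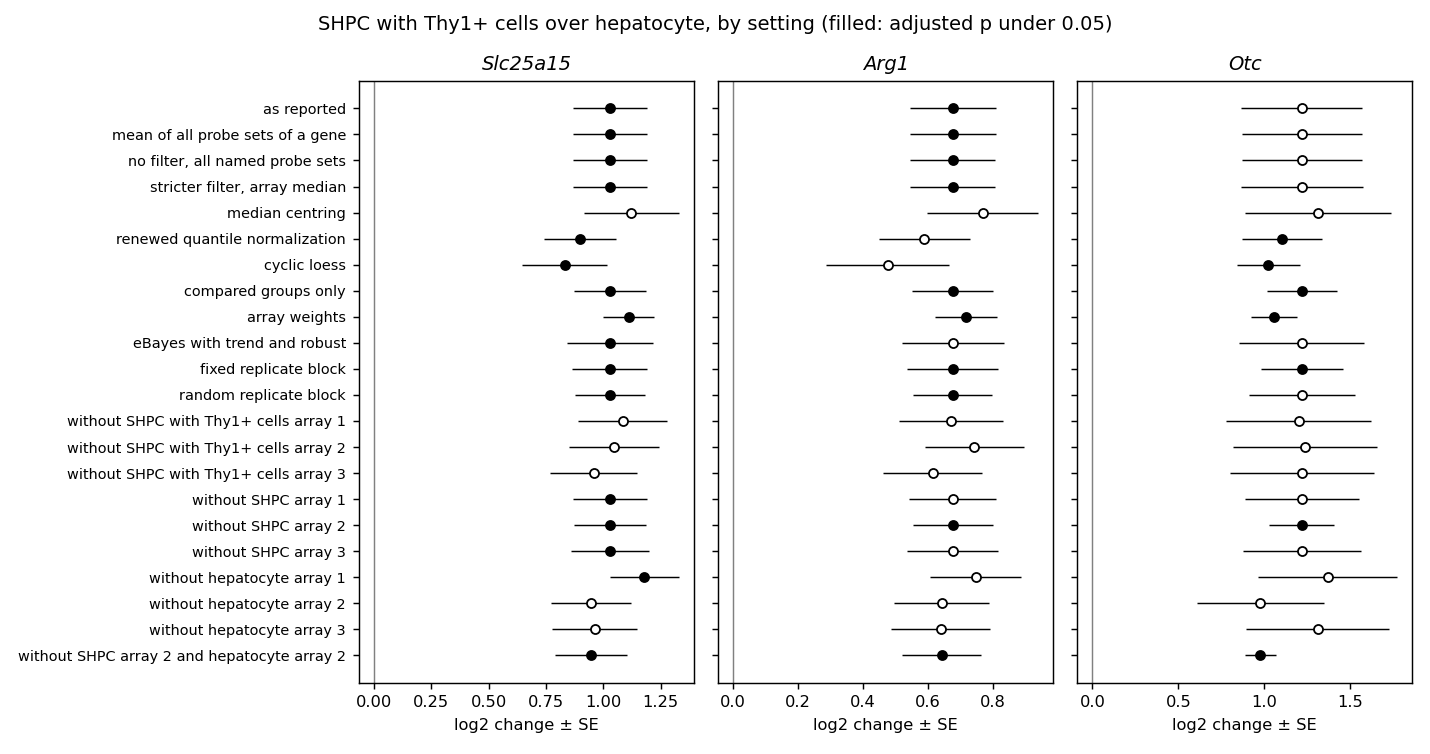
Log2 change ± SE (x axis) of Slc25a15, Arg1 and Otc in transplanted SHPCs over hepatocytes as reported and under 21 other settings (y axis); filled points passed at an adjusted p under 0.05. Slc25a15 lay between 0.83 and 1.18, Arg1 between 0.48 and 0.77 and Otc between 0.98 and 1.37.

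Genes that feed nitrogen into the cycle were tested as a list of 28, of which 24 were measured and tested. In transplanted SHPCs against hepatocytes 5 rose and 1 fell, against 1.18% of all genes, with a median of 0.36. Got1, whose enzyme makes aspartate in the cytosol, was at 10.75, 10.59 and 10.92 in transplanted SHPCs and at 9.65, 9.37 and 9.44 in hepatocytes, with SHPCs in between at 10.35, 9.97 and 10.19. The 3 groups did not overlap. Got1 rose by 1.27 ± 0.15 (SE, limma adjusted p = 0.00585). The serine dehydratase gene Sds, whose enzyme releases ammonia, rose by 2.58 ± 0.25 (limma adjusted p = 0.00295). Gldc, the glycine decarboxylase of the glycine cleavage system, rose by 2.11 ± 0.25 (limma adjusted p = 0.00585). Slc1a2, a glutamate transporter of pericentral hepatocytes, fell by 2.31 ± 0.25 on the log2 scale (limma adjusted p = 0.00346). These 4 genes passed under all 21 alternatives. Got2, the mitochondrial aspartate aminotransferase, rose by 0.72 ± 0.14 (0.0414) and Hal, which releases ammonia from histidine, by 0.71 ± 0.14 (0.0477). Both of these calls ended without any single array except SHPC array 2, at adjusted p-values of 0.0641 to 0.218 for Got2 and 0.0619 to 0.238 for Hal. Without both arrays that stood apart 7 genes of the list rose and 1 fell, against 3.67% of all genes, these 6 among them, and the median was 0.15.

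In transplanted SHPCs against SHPCs 0 of these 24 passed in limma, against 0.00633% of all genes, and 6 had an unadjusted p under 0.05, against 7.35%. Without both arrays 0 passed as well, against 0.146% of all genes. The smallest p-values were those of Got1 at 0.58 ± 0.15 (SE, limma adjusted p = 0.367), Gldc at 0.93 ± 0.25 (0.382) and the glutamine transporter gene Slc38a3 at 0.64 ± 0.23 (0.601), which was 0.41 without SHPC array 2. In SHPCs against hepatocytes Sds rose and Slc1a2 fell, as 2 of the 24, against 0.0633% of all genes. Gldc followed at 1.18 ± 0.25 (limma adjusted p = 0.272, and 0.0399 with the replicate block) and passed in 5 of 22 alternatives. The call of Sds ended without any single array except SHPC array 2, at adjusted p-values of 0.0565 to 0.196, and that of Slc1a2 without transplanted array 2 or 3, SHPC array 1 or any hepatocyte array, at 0.0671 to 0.196; without both arrays that stood apart they were at 0.073 and 0.0689.

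Genes that use arginine and ornithine otherwise were a list of 26, of which 23 were tested. In limma over all 9 arrays 0 passed in any of the 3 comparisons, with 5, 3 and 2 at an unadjusted p under 0.05 in transplanted SHPCs over hepatocytes, transplanted SHPCs over SHPCs and SHPCs over hepatocytes, against 10.4%, 7.35% and 4.12% of all genes. Without both arrays that stood apart 3 passed in transplanted SHPCs over hepatocytes, Prodh, Aldh4a1 and Oaz1, against 3.67% of all genes. In transplanted SHPCs over SHPCs and in SHPCs over hepatocytes 0 passed in that fit, against 0.146% and 0.388% of all genes. Prodh, the proline dehydrogenase gene, came nearest, at 0.94 ± 0.19 over hepatocytes (SE, limma adjusted p = 0.0539) and 0.91 ± 0.19 over SHPCs (0.198). It passed over hepatocytes in 8 of 21 alternatives, among them renewed quantile normalization (0.0273), cyclic loess (0.0237) and the fit without SHPC array 2 (0.0211), and over SHPCs in 2 of 21. Aldh4a1, the next enzyme of proline breakdown, was at 1.12 ± 0.32 over hepatocytes (0.189), passing in 6 of 21 alternatives, among them the fit without SHPC array 2 (0.0258), and the arginine transporter gene Slc7a2 at 0.57 ± 0.14 (0.114). Oat, the pericentral enzyme that takes ornithine away, differed by −1.19 ± 0.45 between SHPCs and hepatocytes (limma adjusted p = 1, and 0.0385 with the replicate block on these groups alone), where Slc7a2 was at 0.32 ± 0.14 and Oaz1, an inhibitor of ornithine decarboxylase, at 0.35 ± 0.16 (limma adjusted p = 1 for both). The Oat difference was −0.64 without SHPC array 2, and that of Oaz1 0.23 without hepatocyte array 1. Gatm, which uses arginine to make creatine's precursor, was at 0.32 ± 0.13 in transplanted SHPCs over SHPCs (limma adjusted p = 0.643). Arg2, the other arginase gene, was measured but dim and was not tested.

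Of 19 tested regulators of the cycle 0 were called in limma in any comparison, with all 9 arrays or without both that stood apart. With all 9 arrays an unadjusted p under 0.05 was reached by 3, 2 and 1 in the same order, against 10.4%, 7.35% and 4.12% of all genes. Hnf4a differed by 0.01 ± 0.19 and Cebpa by 0.12 ± 0.20 in transplanted SHPCs over hepatocytes (SE, limma adjusted p = 0.987 and 0.86), and the glucagon receptor gene Gcgr by 0.20 ± 0.15 (0.688). The 95% interval of the Hnf4a difference was −0.41 to 0.43. The coactivator gene Ppargc1a was at 1.29 ± 0.31 (0.106) and passed in 6 of 21 alternatives, among them renewed quantile normalization (0.0423), cyclic loess (0.0219) and the fit without SHPC array 2 (0.0255). The glucocorticoid receptor gene Nr3c1 was at 0.63 ± 0.23 (0.374), and the bile acid receptor gene Nr1h4 at 0.37 ± 0.16 (0.455), or 0.24 without hepatocyte array 2. Over SHPCs Nr3c1 was at 0.66 ± 0.23, Nr1h4 at 0.41 ± 0.16 and the growth hormone receptor gene Ghr at 0.71 ± 0.32 (limma adjusted p = 0.568, 0.636 and 0.681), and without SHPC array 2 Nr3c1 was at 0.42 and Ghr at 0.34. Between SHPCs and hepatocytes Ppargc1a was at 0.74 ± 0.31, Cebpb at −0.26 ± 0.14 and Creb1 at 0.45 ± 0.25 (limma adjusted p = 1 for each). Ppargc1a was at 0.48 without SHPC array 1, Cebpb at −0.17 without SHPC array 2 or hepatocyte array 2 and −0.08 without both, and Creb1 at 0.22 to 0.68 without SHPC array 1 or 2 or hepatocyte array 1 or 2. Of 13 tested glucagon and glucocorticoid targets, Sds and the tryptophan dioxygenase gene Tdo2 rose in transplanted SHPCs over hepatocytes, where 0.861% of all genes rose. Tdo2 rose by 0.91 ± 0.14 (limma adjusted p = 0.0189). Without both arrays the same 2 passed, against 3.67% of all genes. The Tdo2 call ended without any transplanted array or hepatocyte array 2 or 3 (0.0522 to 0.11), after median centring (0.0536) and after cyclic loess (0.103). Fkbp5, a glucocorticoid-induced chaperone gene, differed by −0.89 ± 0.17 between transplanted SHPCs and SHPCs (limma adjusted p = 0.181), the phosphatase gene Dusp1 by 1.54 ± 0.45 (0.457) and Tdo2 by 0.40 ± 0.14 (0.533). In SHPCs over hepatocytes Sds passed, as 1 of the 13, against 0.0633% of all genes. Without both arrays 0 of the 13 passed there, against 0.388% of all genes.

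The urea cycle is periportal, and the other genes of that zone were set beside it. In transplanted SHPCs against hepatocytes 3 of 12 other periportal genes rose, Sds, Hal and Aldh1b1, against 0.861% of all genes, with a median of 0.68 against 0.62 for the members. Without both arrays that stood apart the same 3 rose, where 3.67% of all genes passed in either direction, and the medians were 0.57 and 0.43. Aldh1b1, a mitochondrial aldehyde dehydrogenase gene, rose by 3.51 ± 0.37 (SE, limma adjusted p = 0.00346) and passed under all 21 alternatives. Of 12 tested pericentral genes 3 fell, Slc1a2, Ahr and Tbx3, against 0.317% of all genes, with a median of −0.34. Without both arrays Cyp2e1 and Lect2 fell too, where 3.67% of all genes passed in either direction, and the median was −0.52. Ahr fell by 1.13 ± 0.21 on the log2 scale (limma adjusted p = 0.0358) and Tbx3, a target of Wnt signalling, by 0.90 ± 0.17 (0.0368). Without any single transplanted or hepatocyte array the Ahr call ended (0.0944 to 0.189), and the Tbx3 call ended without any single array except SHPC array 2 or hepatocyte array 1 (0.0515 to 0.191). In SHPCs against hepatocytes all 12 periportal genes lay above 0, with a median of 0.41 and 1 passing (Sds), and 11 of 12 pericentral genes lay below 0, with a median of −0.68 and 1 passing (Slc1a2), where 0.0633% of all genes passed. Without both arrays the medians were 0.40 and −0.46, and 0 genes of either list passed, against 0.388% of all genes. In the fit with the replicate block Aldh1b1, at 1.62 ± 0.25, passed too (SE of that fit, limma adjusted p = 0.044), and in the fit with the block on these groups alone so did Tbx3, at −0.995 ± 0.14 (0.0304). In transplanted SHPCs against SHPCs 0 genes of either list passed in limma, against 0.00633% of all genes, with 2 of each at an unadjusted p under 0.05, against 7.35%. The medians were 0.24 for periportal and 0.05 for pericentral genes, and 0.17 and −0.05 without both arrays. The smallest p-values were those of Aldh1b1 at 1.89 ± 0.37, Sds at 0.65 ± 0.25 and Ctsc at 0.67 ± 0.32 (limma adjusted p = 0.182, 0.632 and 0.697) and, among pericentral genes, of Cyp7a1 at 1.82 ± 0.51, Cyp27a1 at 0.62 ± 0.25 and Oat at 0.85 ± 0.45 (0.428, 0.653 and 0.705). Ctsc was at 0.25, Cyp7a1 at 1.17, Cyp27a1 at 0.28 and Oat at 0.29 without SHPC array 2, while Aldh1b1 passed in 3 of 21 alternatives.

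**Figure D5:**
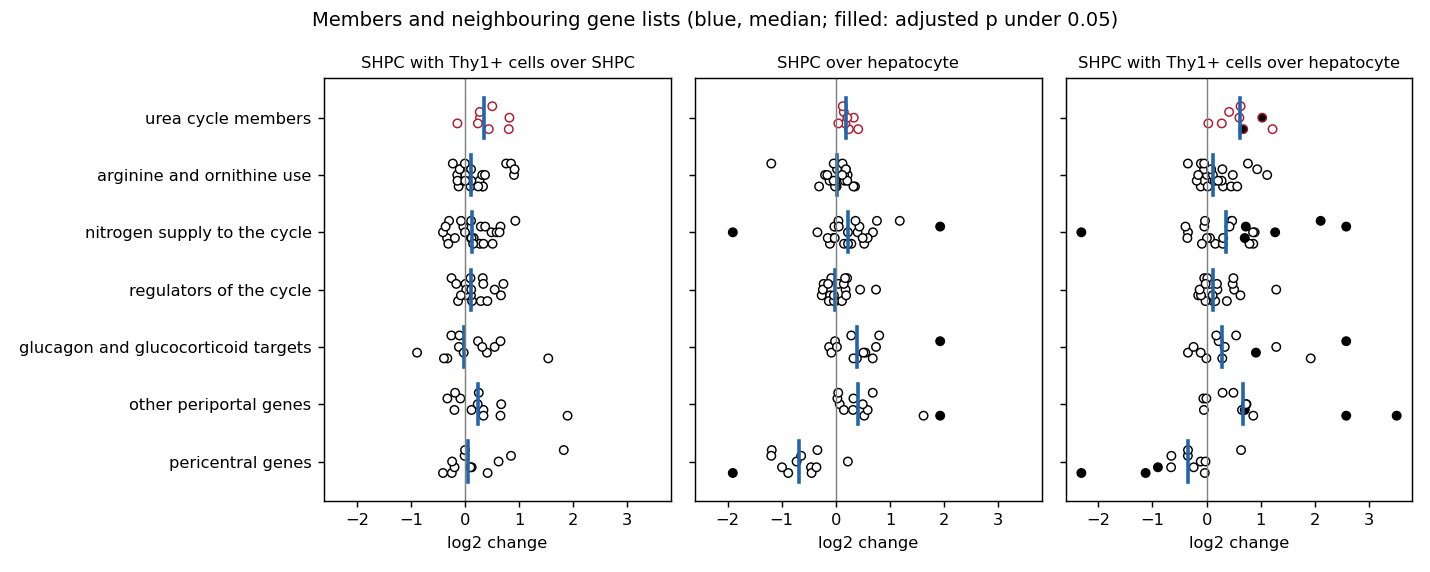
Log2 change (x axis) of each tested gene of the urea cycle members (red rims) and 6 neighbouring lists (y axis) in the 3 comparisons; blue bars are medians and filled points passed at an adjusted p under 0.05. In transplanted SHPCs over hepatocytes the members' median is 0.62, the other periportal genes' 0.68 and the pericentral genes' −0.34.

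Markers of Kupffer cells, the liver's macrophages, had their highest sums in the transplanted group, narrowly above hepatocytes, and their lowest sum on SHPC array 2. Of the 12, only C1qa averaged lower in transplanted SHPCs than in hepatocytes (8.26 against 8.49, log2). Clec4f (8.50 against 8.44) and Adgre1 (6.22 against 6.16) were nearly level. All 12 exceeded the array's 25th percentile on every array, and their summed intensity was 3013 to 3651 in transplanted SHPCs, 1615 to 2617 in SHPCs and 2193 to 2958 in hepatocytes. Endothelial markers summed to 787 to 901, 537 to 768 and 611 to 883 in the same order, and stellate cell markers to 923 to 1124, 589 to 898 and 718 to 1088. Cholangiocyte markers, all 6 measured above the 25th percentile on every array, were dimmer, but their sums did not overlap between groups, though transplanted SHPCs and SHPCs nearly met: they summed to 147 to 171 in transplanted SHPCs, 136 to 146 in SHPCs and 116 to 134 in hepatocytes, the order of the means of 7 of the 8 members. Epcam, which marks the bile duct epithelium, averaged 5.92 in transplanted SHPCs, 5.18 in SHPCs and 5.03 in hepatocytes (log2). Krt19 and Cftr had the same order of means. Krt7 and Sox9 were lowest in transplanted SHPCs, at 4.52 against 4.86 and 4.71 and at 3.94 against 4.28 and 4.24. Spp1 averaged 4.32, 4.34 and 4.03, so the order of the sums is not shared by all these markers. The part of these markers in the members' differences was not tested. In dissected tissue, fewer cells of a type and less RNA per cell cannot be told apart.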

How the data were processed

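RNA of laser-dissected liver was measured on 9 Affymetrix whole-transcript arrays, 3 per group. The deposited intensity values of 36685 probe sets are on the linear scale and were made with RMA, per the submitters' processing notes; no source used here states its version, settings or genome build. Values were turned to log2 for this report. The platform annotation gave 18511 probe sets 1 symbol, 575 several and 17599 none, and only the first were used; the brightest probe set stood for a gene. Genes above the array's 25th percentile on at least 3 of 9 arrays were tested, 15793 of 18166. The tests came from limma 3.58.1 (R 4.3.3), in 1 fit of 3 group means with eBayes and Benjamini-Hochberg adjustment over all tested genes at 0.05, after checking the code on simulated data. SE and 95% intervals are limma's.

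The members, gene lists, tests and alternatives were chosen with earlier results of these data known. All 8 members were named, then from each list every gene past the threshold, or otherwise the 3 with the smallest p. Hnf4a, Cebpa, Gcgr, Slc25a23, Slc25a30, Cyp2e1, Lect2, Epcam and the other cholangiocyte markers lie outside that rule and were added after their values were seen. Between SHPCs and hepatocytes, the deviations of arrays with the same number correlated at 0.53, 0.70 and 0.34. SHPC array 3 correlated best with hepatocyte array 1, and both arrays numbered 2 stood apart. These correlations therefore do not show that the numbers mark pairs. On 2 arrays of a group, 2.62% to 6.64% of tested genes held equal values, which narrows the spread. The number of arrays limits the precision, and depth does not apply to arrays.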

Additional observations from a re-analysis of the deposited data

How the results depend on the processing

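Over 21 alternatives (22 for SHPCs over hepatocytes, 1 added after seeing the data), the members' medians kept their sign. The median over transplanted SHPCs against SHPCs moved by more than the spread between arrays under cyclic loess only, to 0.10. Median centring adds 0.103 to the median of all genes in that comparison. Members called in transplanted SHPCs over hepatocytes numbered 0 after median centring, 1 with a trended, robust prior and 6 with array weights (Cps1, Otc, Ass1, Arg1, Nags, Slc25a15), and 0 to 3 without any single array. Array weights called 1 in each other comparison, Slc25a15 and Otc. Genes called in all, for transplanted SHPCs over SHPCs, were 1 as reported (0 higher, 1 lower), 2 without a filter, 0 after median centring, 17 after renewed quantile normalization (3 higher, 14 lower), 40 after cyclic loess (16 higher, 24 lower), 0 with the compared groups only, 259 with array weights, 23 without both arrays that stood apart, and 0 to 24 without any single array. For SHPCs over hepatocytes they were 10, then 0 after median centring, 17 after quantile normalization, 34 after cyclic loess, 0 with the compared groups only, 375 with array weights, 61 without both arrays, and 0 to 53 without any single array. For transplanted SHPCs over hepatocytes they were 186, then 47 after median centring, 328 after quantile normalization, 439 after cyclic loess, 304 with the compared groups only, 2685 with array weights, 576 without both arrays, and 31 to 472 without any single array. When the replicate numbers entered as a fixed block, these counts were 64, 35 and 367, and as a random block 10, 29 and 305; with the fixed block and SHPC and hepatocyte arrays only, 76. Between transplanted SHPCs and either other group, the deviations of arrays with the same number correlated at −0.09 to 0.0023. These correlations do not settle what the numbers mark. Under the fixed block Otc passed over hepatocytes (limma adjusted p = 0.0304), and no other member's call changed. Signs turned for Slc25a13 in transplanted SHPCs over SHPCs (−0.0071 after cyclic loess), for Slc25a13 and Nags in SHPCs over hepatocytes (−0.14 to 0.23 and −0.040 to 0.32 without any single array), and for Asl in transplanted SHPCs over hepatocytes (−0.058 after quantile normalization, −0.17 after cyclic loess, −0.12 without both arrays, −0.12 to 0.19 without any single array). The cause of these shifts was not tested.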
